A study of Mus musculus with 4 samples.

Results

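Egr1, Fos, Arc and Ier2 are immediate early genes, and they were followed here in cultured mouse sensory neurons that received human PROM1. They were taken by symbol from the gene descriptions of the deposited expression table, where all 4 were present, among 11258 genes in all. The study compared 2 PROM1 libraries with 2 control libraries. The PROM1 cultures were neurons dissociated from embryonic dorsal root ganglia (DRG, embryonic day 13.5) and transduced with a lentivirus that overexpresses human PROM1 (CD133), and the control cultures were the same neurons transduced with pLKO control lentivirus. Both groups grew on poly-D-lysine and laminin in Neurobasal medium with B-27, 5-fluoro-2'-deoxyuridine and uridine, and received virus at day 2 in vitro. The labels name day 5 in vitro for RNA extraction from cultured embryonic neurons and also for replating, and do not say whether the sequenced cultures were replated. The labels give no strain, no sex and no mouse genotype, and they do not name the promoter of the PROM1 virus. PROM1 is a cholesterol-binding protein of membrane protrusions. Polyadenylated RNA was sequenced, and each value is an FPKM, fragment numbers adjusted for the length of the transcript and for the size of the library.

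Immediate early genes are transcribed within minutes of a stimulus without new protein synthesis. In neurons the stimulus can be a growth factor or calcium entry, which act through the Ras-ERK cascade on serum response factor (SRF) and its ETS partners, and through kinases on CREB. Their transcripts and proteins are short-lived. Egr1 is a zinc finger transcription factor, Fos pairs with Jun proteins to form the AP-1 transcription factor, Ier2 is a small nuclear protein, and Arc binds endocytic proteins at synapses and is an immediate early gene that encodes an effector rather than a transcription factor.

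Of the 4 genes, Fos has a promoter in the RefSeq-derived table used here (assembly GRCm38.p6), and Egr1, Arc and Ier2 are without an entry. The promoter is shown because Fos is the textbook target of the SRF and CREB pathways described above. It spans chr12:85473640-85473939 on the plus strand, from 250 bases before the annotated start to 50 bases after it, with the motifs found in capitals.
Fos: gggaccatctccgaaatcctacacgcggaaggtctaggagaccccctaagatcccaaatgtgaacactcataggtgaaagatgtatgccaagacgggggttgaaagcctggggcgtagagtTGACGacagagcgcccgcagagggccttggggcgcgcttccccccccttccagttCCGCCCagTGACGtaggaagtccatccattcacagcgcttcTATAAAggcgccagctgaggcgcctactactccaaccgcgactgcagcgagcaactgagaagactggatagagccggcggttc

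In that window both strands were searched. The core of the cAMP response element, TGACG, occurred at -129 to -125 and again at -66 to -62, counted from the annotated start. TATAAA occurred at -33 to -28, and the GC box core GGGCGG was found on the opposite strand at -74 to -69, where it reads CCGCCC above. TGACG was held by 20.8% of the 32851 promoters of the same length in that table, TATAAA by 13.6% and GGGCGG by 35.7%. The full cAMP response element TGACGTCA, which contains TGACG, the CArG box bound by SRF, the ETS core CCGGAA, the EGR site GCGTGGGCG and the AP-1 site TGACTCA had no match in the window. These were held by 1.79%, 1.63%, 14.9%, 0.612% and 5.2% of the promoters, in that order. A match is a description of the letters and not evidence of binding. Bases farther than 250 before the start or 50 after it were not searched. The lack of a match in this window therefore does not show that Fos is without such a site.

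All 4 genes had higher FPKM in both PROM1 libraries than in either control library, and none of them passed the test over all genes. On the log2(FPKM + 1) scale the differences of PROM1 over control were 1.66 for Egr1, 1.27 for Fos, 0.87 for Arc and 0.68 for Ier2. Such a separation, each PROM1 library above each control library, was seen for 16.5% of the 10108 genes tested, and for 17.9% of the 6082 genes with a mean of 1 to 10 FPKM, the range that holds all 4. The members were named with these values known, so their count of 4 of 4 describes them and is not a test. Limma, with Benjamini-Hochberg adjustment over all genes, called 2 of the 10108 genes (0.0198%), neither of them among the 4, and 4.7% of genes had an unadjusted p under 0.05. The 2 called are microRNA records, both lower in PROM1 cultures, and 0 genes were called without records under 200 nt.

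Egr1 was listed at 4.16 and 5.03 FPKM in PROM1 libraries 1 and 2, against 0.312 and 1.37 FPKM in control libraries 1 and 2. Both PROM1 libraries were high and close together, both control libraries were low, and the groups did not overlap. The means were 4.60 ± 0.614 FPKM in PROM1 cultures and 0.841 ± 0.749 FPKM in control cultures (SD, n = 2 each), a ratio of 5.47. The difference on the log2(FPKM + 1) scale was 1.66 ± 0.40 (SE), with a 95% interval of 0.66 to 2.66. Its limma p was 0.00721 before adjustment and 0.939 after adjustment over all genes, and 61 genes had a smaller p. Among the tested genes 0.584% had a larger positive difference. Egr1 thus had the largest difference of the 4 genes, from the lowest control level.

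Fos was listed at 6.08 and 3.22 FPKM in PROM1 libraries 1 and 2, against 0.858 and 1.78 FPKM in control libraries 1 and 2. The groups did not overlap, but PROM1 library 1 stood well above PROM1 library 2. The means were 4.65 ± 2.02 FPKM in PROM1 cultures and 1.32 ± 0.651 FPKM in control cultures (SD, n = 2 each), a ratio of 3.53. The log2 difference was 1.27 ± 0.40 (SE), with a 95% interval of 0.26 to 2.28. Its limma p was 0.0226 before adjustment and 0.939 after it. The lower end of that interval lies close to no difference. Egr1 and Fos were the 2 members with an unadjusted limma p under 0.05 and a higher mean in PROM1 cultures, where 2.33% of all genes tested met the same 2 conditions.

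Ier2 was listed at 7.84 and 3.92 FPKM in PROM1 libraries 1 and 2, against 3.67 and 2.62 FPKM in control libraries 1 and 2. Only PROM1 library 1 stood clear of the rest, since PROM1 library 2 exceeded control library 1 by little. The means were 5.88 ± 2.78 FPKM in PROM1 cultures and 3.14 ± 0.744 FPKM in control cultures (SD, n = 2 each). The log2 difference of 0.68 ± 0.37 (SE) had a 95% interval of -0.26 to 1.62, and an interval that includes 0 does not show that the groups are alike. Its limma p was 0.123 before adjustment and 0.939 after it. Leaving out PROM1 library 1 gave a difference of 0.26, and leaving out PROM1 library 2 gave 1.11.

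Arc, summed over its 2 listed transcripts, was at 11.0 and 6.46 FPKM in PROM1 libraries 1 and 2, against 2.77 and 6.09 FPKM in control libraries 1 and 2. PROM1 library 2 and control library 2 were nearly level, so the groups were separated by little. The means were 8.71 ± 3.19 FPKM in PROM1 cultures and 4.43 ± 2.35 FPKM in control cultures (SD, n = 2 each). The log2 difference was 0.87 ± 0.42 (SE), with a 95% interval of -0.17 to 1.91. Its limma p was 0.0855 before adjustment and 0.939 after it. It was 0.42 without control library 1, 0.53 without PROM1 library 1 and 1.33 without control library 2.

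**Figure D1:**
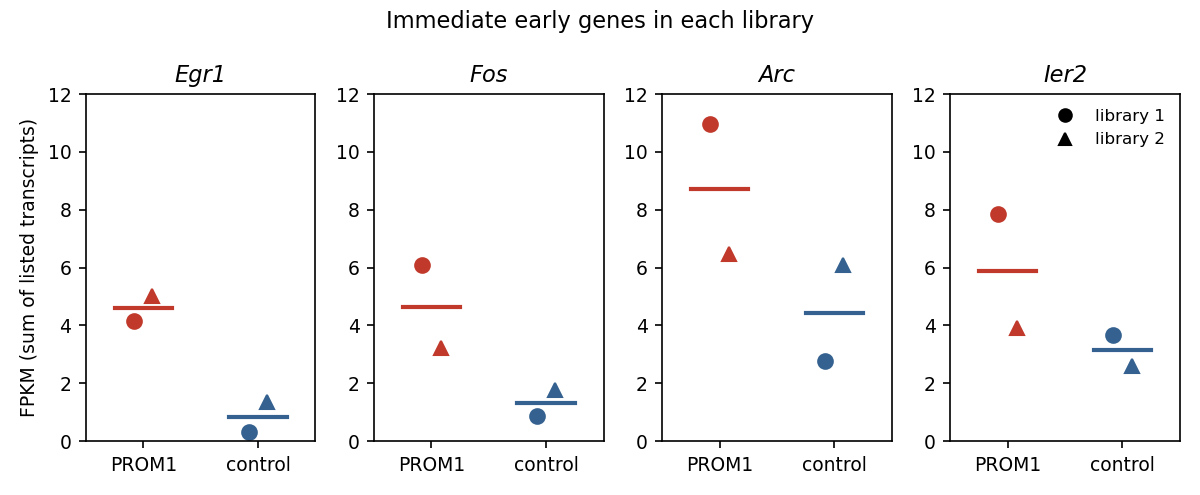
FPKM of Egr1, Fos, Arc and Ier2 (vertical axis) in the PROM1 and control libraries, with circles for library 1, triangles for library 2 and a bar at each group mean. The PROM1 points lie above the control points in all 4 panels, with a wide gap for Egr1 (4.16 and 5.03 FPKM in PROM1 against 0.312 and 1.37 FPKM in control) and a narrow one for Arc and Ier2.

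The value of Arc depends on summing its transcripts. Transcript NM_001276684 was listed at 10.9 FPKM in PROM1 library 1 and at 0.000423 FPKM in PROM1 library 2, against 2.65 and 5.97 FPKM in control libraries 1 and 2. Transcript NM_018790 ran the other way, with 0.105 FPKM in PROM1 library 1 and 6.46 FPKM in PROM1 library 2, against 0.115 and 0.114 FPKM in control libraries 1 and 2. PROM1 library 2 therefore had almost all of its Arc on the transcript that held 0.961% of Arc in PROM1 library 1, and 4.15% and 1.88% in control libraries 1 and 2. In the GENCODE M21 models of the 2 transcripts (GRCm38, 3055 and 3054 bases), the coding sequence is the same. They differ by 2 bases at the start of exon 1 and by 3 bases at the start of exon 2, which lies after the stop codon. A switch between these transcripts in 1 library is thus a matter of a few bases, and the sum is the quantity used here. Fitted on NM_001276684 alone, the transcript with the higher mean, the log2 difference was -0.55 ± 1.34 (SE) and so had the opposite sign.

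**Figure D2:**
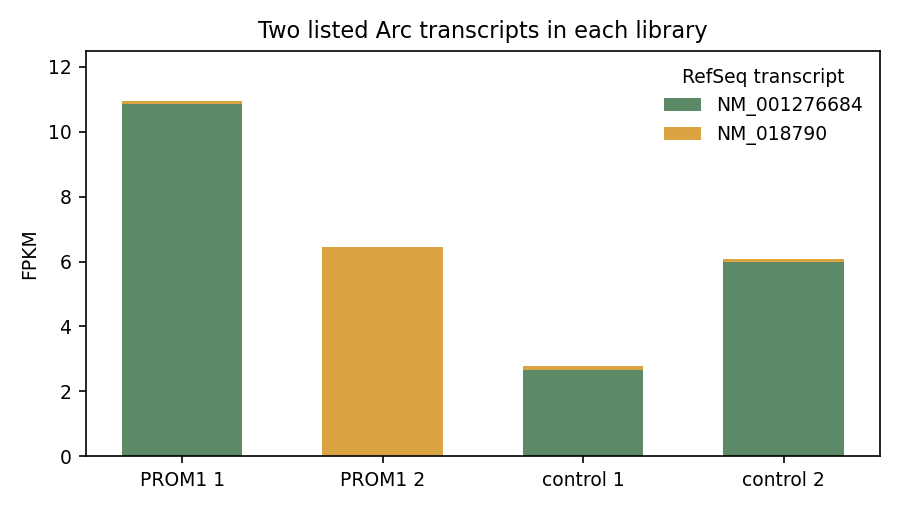
FPKM of the 2 listed Arc transcripts, stacked, in each of the 4 libraries. In PROM1 library 2 nearly the whole bar of 6.46 FPKM is transcript NM_018790, while in the other libraries NM_001276684 makes up 95.9% or more.

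The authors' deposited table compares 1 group value per transcript, and its group values differ from the averages of the libraries. In the authors' deposited table, Egr1 had 6.10 FPKM in the PROM1 group and 1.45 FPKM in the control group (4.22-fold, p = 0.0033, q = 0.534). Fos had 4.37 FPKM in the PROM1 group and 1.13 FPKM in the control group in the authors' deposited table (3.87-fold, p = 0.0425, q = 0.865). Both directions are those of the library values. For Ier2 the authors' deposited table gives 5.02 FPKM in the PROM1 group and 2.99 FPKM in the control group (1.68-fold, p = 0.224). For Arc it gives 1.27-fold for NM_001276684 (p = 0.625) and 11.6-fold for NM_018790 (p = 0.265), so the authors' deposited table splits Arc between the 2 transcripts in the same way. None of these 5 transcripts is marked significant in the authors' deposited table, which marks 0.204% of its 14236 transcripts. A deposited p under 0.05 with a higher PROM1 group value was met by 2.13% of the transcripts in the authors' deposited table.

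**Figure D3:**
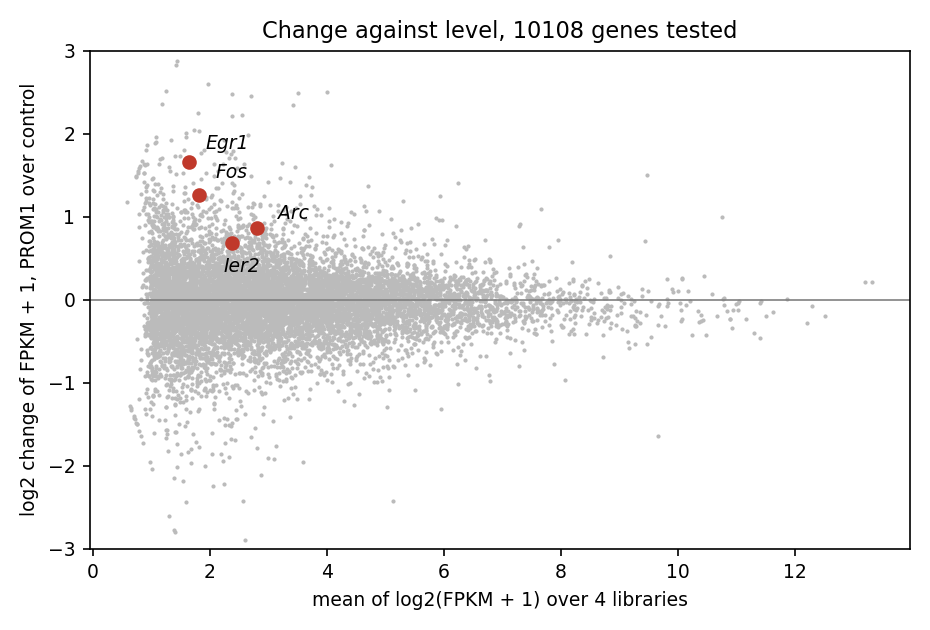
Log2 difference of PROM1 over control (vertical axis) against the mean of log2(FPKM + 1) over the 4 libraries (horizontal axis) for the 10108 genes tested, with the 4 immediate early genes in red; 39 genes lie outside the vertical range. Among genes with a mean of 1 to 10 FPKM, 0.559% had a larger difference than Egr1 (1.66) and 1.46% than Fos (1.27). The shares were 4.52% for Arc (0.87) and 7.35% for Ier2 (0.68).

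The 4 genes varied among themselves. By level, Arc was the highest in PROM1 library 1, PROM1 library 2 and control library 2, and Ier2 the highest in control library 1. Egr1 was the lowest of the 4 in PROM1 library 1 and in both control libraries, while in PROM1 library 2 it was second to Arc and Fos was the lowest. The mean levels of Egr1 and Fos in PROM1 cultures (4.60 and 4.65 FPKM) did not differ beyond their spread, and neither did those of Ier2 and Arc (5.88 and 8.71 FPKM). In control cultures the neighbours in the order of means, Egr1, Fos, Ier2 and Arc, were at 0.841, 1.32, 3.14 and 4.43 FPKM. There the libraries of Egr1 and Fos overlapped, as did those of Ier2 and Arc, while all values of Ier2 and Arc lay above all values of Egr1 and Fos. The summed level of the 4 was 29.0 and 18.6 FPKM in PROM1 libraries 1 and 2, against 7.60 and 11.9 FPKM in control libraries 1 and 2.

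The spread inside the groups bears on these differences. Between the PROM1 libraries, library 1 exceeded library 2 by 0.75 for Fos, 0.68 for Arc and 0.85 for Ier2 on the log2(FPKM + 1) scale, and fell short of it by 0.22 for Egr1. Among genes with a mean of 1 to 10 FPKM the median absolute gap between the PROM1 libraries was 0.35, so Fos, Arc and Ier2 were more variable than the median gene of that level. Between the control libraries, library 1 was below library 2 by 0.85 for Egr1, 0.58 for Fos and 0.91 for Arc, and above it by 0.37 for Ier2, where the median absolute gap was again 0.35. Fos, Arc and Egr1 thus had the lower control value in the same library. Taking libraries of the same number, the difference of PROM1 over control was 1.98, 1.93, 1.67 and 0.92 in number 1 for Egr1, Fos, Arc and Ier2, and 1.35, 0.60, 0.07 and 0.44 in number 2. The labels do not say that a number marks a shared culture, so these are values and not pairs.

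Egr1 kept a difference of at least 1.24 when any 1 library was left out, with a range of 1.24 to 2.09. The range was 0.89 to 1.64 for Fos, 0.42 to 1.33 for Arc and 0.26 to 1.11 for Ier2. All 16 of these differences were above 0, which had to be so because the groups of each gene did not overlap. Their sign is therefore no added support, and only their size is informative. An exact two-sided permutation test over the libraries gave p = 0.33 for each of the 4 genes, which is the smallest that 2 libraries against 2 can give.

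**Figure D4:**
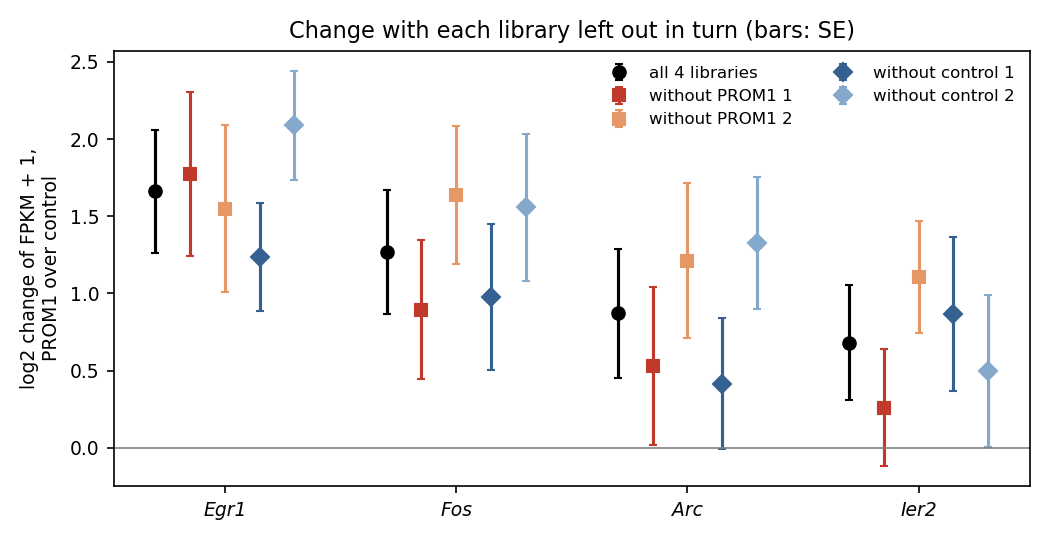
Log2 difference of PROM1 over control (vertical axis, bars are SE) for each gene with all 4 libraries and with each library left out in turn. The values for Egr1 stay between 1.24 and 2.09, while those for Ier2 come down to 0.26 without PROM1 library 1.

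Other immediate early genes did not all follow the 4. Of 23 other immediate early transcription factors listed, 12 were in the table and 8 were tested, of which 4 had higher and 4 lower means in PROM1 cultures. The median log2 difference was -0.03, against -0.03 over all genes tested. None was called by limma, with 1 unadjusted p under 0.05. Without PROM1 library 1, 1 of the 8 was higher and 7 were lower. Jun, the usual partner of Fos, was at 4.72 and 3.71 FPKM in PROM1 libraries against 4.79 and 4.22 FPKM in control libraries, a log2 difference of -0.08 ± 0.27 (SE). The groups of Jun overlapped, as did those of Jund, a Jun family member (0.02 ± 0.24, SE). The pluripotency and stress factor Klf4 was at 0.162 and 0.781 FPKM in PROM1 libraries against 1.97 and 2.10 FPKM in control libraries, the opposite order. Its log2 difference was -1.08 ± 0.39 (SE), and its limma p was 0.0372 before adjustment and 0.939 after it. Nr4a2, an orphan nuclear receptor, was likewise lower in each PROM1 library than in any control library (1.03 and 1.76 FPKM in PROM1, 2.49 and 2.28 FPKM in control). Nfil3, a leucine zipper repressor, had the order of the 4 members (3.59 and 5.27 FPKM in PROM1, 2.37 and 3.20 FPKM in control). Klf6, a zinc finger factor, had a log2 difference of -0.17 ± 0.24 (SE). Myc was listed at 7.37 and 0.00896 FPKM in PROM1 libraries and at 0.00196 and 2.45 FPKM in control libraries, so each group held a high and a near-zero value. Without PROM1 library 1 its difference was -0.88 and without PROM1 library 2 it was 2.17. Junb, another Jun family member, was below the mean of 1 FPKM needed for a test, at 0.897 and 0.559 FPKM in PROM1 libraries against 0.106 and 1.45 FPKM in control libraries.

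Immediate early effectors other than Arc mostly had higher means in PROM1 cultures. Of 19 listed, 12 were in the table and 10 were tested, with 7 higher and 3 lower means, a median log2 difference of 0.21, 0 called by limma and 3 with an unadjusted p under 0.05. All 3 were higher in PROM1 cultures, where 2.33% of all genes tested had such a p and a higher mean. Trib1, a pseudokinase, was at 20.5 and 20.3 FPKM in PROM1 libraries against 5.66 and 9.54 FPKM in control libraries. Ier5l, a relative of the Ier family, was at 75.0 and 87.0 FPKM in PROM1 libraries against 34.2 and 47.3 FPKM in control libraries. Plk2, a polo-like kinase induced by activity, was at 19.7 and 24.0 FPKM in PROM1 libraries against 9.84 and 11.9 FPKM in control libraries. These 3 genes were more abundant than the 4 members, their groups did not overlap, and their log2 differences were 1.35 ± 0.29, 0.99 ± 0.23 and 0.94 ± 0.23 (SE), with limma adjusted p = 0.939 for each. Btg2, an antiproliferative p53 target, was at 2.28 and 2.46 FPKM in PROM1 libraries against 1.24 and 1.38 FPKM in control libraries. Rgs2, a regulator of G-protein signalling, had a log2 difference of -0.90 ± 0.52 (SE). Leaving out PROM1 library 2 gave -0.32 and leaving out PROM1 library 1 gave -1.49. Ier3, a stress-response gene, had a difference of -0.41 ± 0.60 (SE). Over the 4 members and both lists together, 15 of 22 tested genes had a higher mean in PROM1 cultures (68.2%, against 46.5% of all genes tested), with a median of 0.21. Without the 4 members this was 11 of 18 genes with a median of 0.07, and 5 of the 18 had each PROM1 library above each control library and 2 had each below, where these orders were seen for 16.5% and 17.5% of all genes tested.

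**Figure D5:**
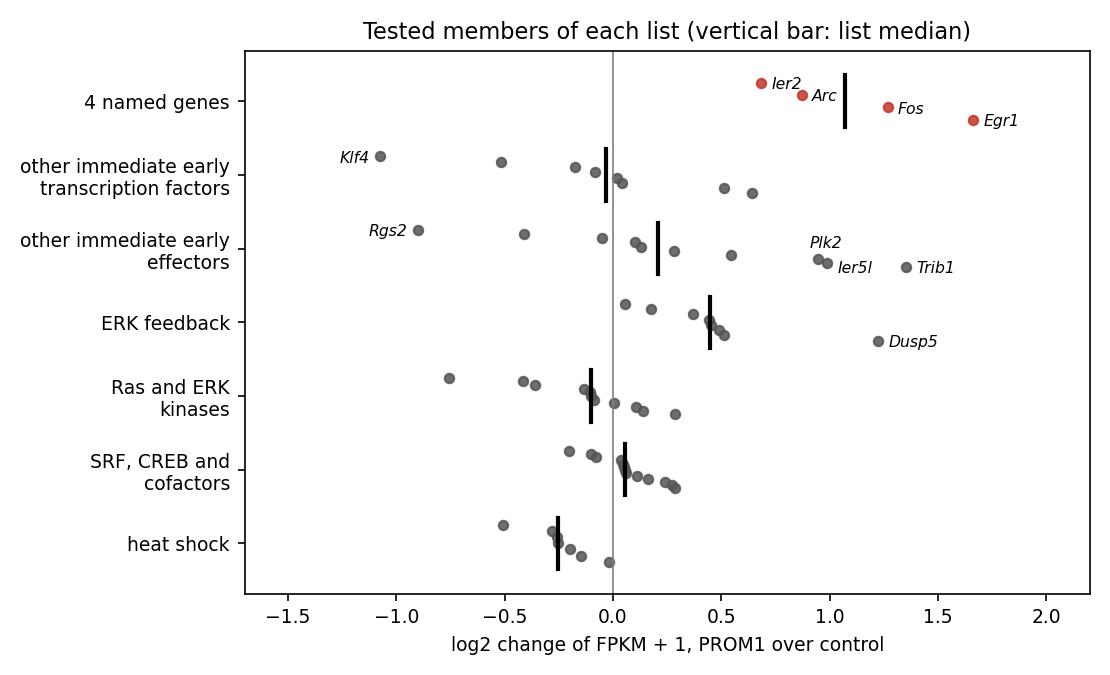
Log2 differences of PROM1 over control for the tested members of 7 gene lists, 1 point per gene, with a vertical bar at each list median. The 4 members have a median of 1.07, other immediate early factors -0.03, effectors 0.21 and ERK feedback genes 0.45.

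The Ras proteins and kinases upstream of immediate early genes, apart from Nras, had smaller absolute differences than any of the 4 members. Of 12 genes for Ras proteins and kinases of the ERK cascade, 11 were tested, 4 with higher and 7 with lower means, and the median log2 difference was -0.10. None was called by limma, with 0 unadjusted p-values under 0.05. The largest differences of these 11 were those of the Ras protein gene Nras (-0.76 ± 0.46, SE), the ribosomal S6 kinase Rps6ka3 (-0.42 ± 0.24, SE) and the MEK gene Map2k1 (-0.36 ± 0.27, SE). That of Nras rested on PROM1 library 2 and was -0.09 without it. The ERK kinase gene Mapk3 had a log2 difference of 0.00 ± 0.19 (SE). Transcript levels of these kinases do not measure their activity.

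Genes that ERK signalling induces as its own brakes had higher means in PROM1 cultures, each without passing the test. All 8 tested genes of the 9 listed, namely Dusp phosphatases and Sprouty and Spred proteins, had higher means, with a median log2 difference of 0.45, 0 called by limma and 1 with an unadjusted p under 0.05. Of all genes tested 46.5% had a higher mean. Each PROM1 library was above each control library for 4 of the 8, an order seen for 16.5% of all genes tested. Dusp5, a nuclear phosphatase of ERK, was at 10.1 and 5.66 FPKM in PROM1 libraries against 2.37 and 3.03 FPKM in control libraries, with a log2 difference of 1.22 ± 0.34 (SE). Its limma p was 0.0134 before adjustment and 0.939 after it. Spry4 was at 33.3 and 31.0 FPKM in PROM1 libraries against 19.8 and 24.9 FPKM in control libraries, a log2 difference of 0.51 ± 0.21 (SE). Spry2 was at 9.14 and 7.87 FPKM in PROM1 libraries against 3.74 and 8.64 FPKM in control libraries, and its difference of 0.49 was -0.02 without control library 1. The count of 8 of 8 was 6 of 8 without control library 1 and 7 of 8 without control library 2 or PROM1 library 1.

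The transcription factors that act on immediate early promoters were nearly level. Of 18 genes for SRF, its ETS and MRTF partners, CREB family members and their coactivators, 13 were tested, 10 with higher and 3 with lower means, a median log2 difference of 0.06, 0 called by limma and 0 with an unadjusted p under 0.05. The count depended on control library 2, since without it 4 were higher and 9 lower. Srf was at 5.04 and 6.74 FPKM in PROM1 libraries against 4.77 and 4.56 FPKM in control libraries (0.27 ± 0.26, SE). The coactivator Crebbp had a difference of 0.29 ± 0.19 (SE) and Mkl2, an SRF partner, of 0.24 ± 0.21 (SE). Of 5 genes for proteins that bind AU-rich elements and set the decay of short-lived transcripts, 3 were tested, 2 with higher and 1 with lower means, or 1 and 2 without control library 2. Zfp36l2, a decay factor, had a log2 difference of -0.42 ± 0.43 (SE), Khsrp, a splicing and decay factor, of 0.30 ± 0.23 (SE), and Elavl1, a stabilising factor, of 0.17 ± 0.32 (SE). Both Nab corepressors of Egr1 were not analysed here.

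Genes that work beside or after the 4 were mixed. The 7 genes for Arc partners in endocytosis and at synapses were all tested, 4 with higher and 3 with lower means, and the median was 0.05. Without PROM1 library 2 all 7 were higher. Dnm2, a dynamin, was at 24.7 and 16.2 FPKM in PROM1 libraries and at 25.2 and 6.29 FPKM in control libraries, so 1 control library stood apart. Sh3gl3 and Sh3gl1, endophilins, had log2 differences of -0.50 ± 0.59 and 0.20 ± 0.34 (SE). Of 8 late-response genes of active neurons 6 were tested, 3 with higher and 3 with lower means and a median of 0.10, or 5 higher and 1 lower without PROM1 library 2. Nptx2, a neuronal pentraxin, was at 156.4 and 105.2 FPKM in PROM1 libraries against 99.6 and 87.0 FPKM in control libraries, and Vgf, a neuropeptide precursor, at 97.5 and 90.1 FPKM in PROM1 against 85.1 and 75.6 FPKM in control libraries. The secretogranin Scg2 had a log2 difference of -0.22 ± 0.27 (SE). Bdnf and Inhba were below the mean of 1 FPKM needed for a test. Bdnf was lower in each PROM1 library (0.346 and 3.98e-09 FPKM) than in either control library (0.689 and 2.28 FPKM). Inhba overlapped, at 0.341 and 0.178 FPKM in PROM1 libraries against 0.193 and 0.194 FPKM in control libraries. Limma called none of the genes of these lists, and 0 of their unadjusted p-values were under 0.05.

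Stress and handling can raise immediate early genes, and whether either acted on the 4 genes was not tested. Genes of heat shock and of axon injury had the following values in the same libraries. Of 8 heat shock genes 7 were tested. All 7 were lower on average in PROM1 cultures (median log2 difference -0.25), with 0 called by limma and 0 with an unadjusted p under 0.05. The lower means numbered 6 of 7 with the libraries rescaled or without PROM1 library 1, and 5 of 7 without control library 2 or without PROM1 library 2. Hspb1, a small heat shock protein, was at 3.07 and 2.46 FPKM in PROM1 libraries against 4.09 and 4.59 FPKM in control libraries. Hspa8, a constitutive chaperone, had a log2 difference of -0.26 ± 0.19 (SE) and Hsph1 of -0.28 ± 0.31 (SE). Of 9 genes of axon injury and regrowth 6 were tested, 3 with higher and 3 with lower means and a median of -0.02. Gadd45a, a damage-response gene, was at 2.26 and 2.44 FPKM in PROM1 libraries and was listed at 1.49 and 0 FPKM in control libraries. Stmn2, a tubulin-binding protein of growth cones, was at 661.6 and 619.0 FPKM in PROM1 libraries against 843.1 and 910.6 FPKM in control libraries, and Sox11, a regeneration factor, had a log2 difference of 0.29 ± 0.24 (SE).

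The cultures carried neuronal markers in all libraries, at levels above those of most markers of other cells. The 11 neuronal markers reported were all tested, and they summed to 2670 and 3150 FPKM in PROM1 libraries and to 2640 and 2920 FPKM in control libraries. Means in PROM1 cultures were higher for 4 and lower for 7 of them, with a median log2 difference of -0.03, 0 called by limma and 1 unadjusted p under 0.05. Prph and Tubb3 had the highest means, and Tubb3, a neuronal tubulin, was at 546.7 and 616.0 FPKM in PROM1 libraries against 695.5 and 691.7 FPKM in control libraries. The largest differences were those of Nefh, a neurofilament subunit (531.8 and 564.0 FPKM in PROM1 libraries against 341.1 and 420.9 FPKM in control libraries), and Pou4f1, a sensory neuron transcription factor (20.4 and 15.2 FPKM in PROM1 libraries against 21.6 and 24.7 FPKM in control libraries). Nefh and Nefl were higher, and Tubb3, Pou4f1 and Scn9a lower, in each PROM1 library than in either control library. These orders were seen for 16.5% and 17.5% of all genes tested. Of 11 fibroblast markers 7 were in the table and 5 tested, 4 with higher means in PROM1 cultures. Vim, which embryonic neurons also express, made up most of the sum, and without it the fibroblast markers summed to 10.2 and 14.9 FPKM in PROM1 libraries against 5.37 and 5.71 FPKM in control libraries. Col1a1, a collagen chain, was at 3.33 and 4.28 FPKM in PROM1 libraries against 0.545 and 1.24 FPKM in control libraries, and Col1a2 at 1.32 and 2.34 FPKM in PROM1 against 0.302 and 0.694 FPKM in control libraries. Col3a1, Dcn, Lum and Pdgfra were not analysed here. Fibroblasts can express immediate early genes, and the part of these cells in the values of the 4 genes was not tested.

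Of 13 markers of Schwann cells and satellite glia 6 were in the table and tested, 1 with a higher and 5 with lower means. Without Ngfr, which the neurons express, these markers summed to 44.7 and 45.9 FPKM in PROM1 libraries against 76.5 and 56.3 FPKM in control libraries. Mbp, a myelin gene, had a log2 difference of -0.20 ± 0.21 (SE) and Pmp22, another, of -0.83 ± 0.27 (SE), while the glial factor Sox10 was at 0.984 and 1.32 FPKM in PROM1 libraries and at 0.706 and 1.75 FPKM in control libraries. Of 8 macrophage markers C1qb and Aif1 were in the table, summing to 1.79 and 1.99 FPKM in PROM1 libraries against 3.80 and 3.51 FPKM in control libraries. The lower sum rested on C1qb, at 0.34 and 1.16 FPKM in PROM1 libraries against 2.30 and 3.51 FPKM in control libraries. Aif1 overlapped, at 1.45 and 0.821 FPKM in PROM1 libraries against 1.50 and 0 FPKM in control libraries. Acta2, the single endothelial and mural marker present of 8, was at 3.43 and 1.51 FPKM in PROM1 libraries against 3.63 and 3.83 FPKM in control libraries. Of 8 cycling markers Pcna and Mcm2 were in the table, summing to 10.2 and 14.0 FPKM in PROM1 libraries against 6.43 and 11.8 FPKM in control libraries. The sum was mostly Pcna, at 8.54 and 12.3 FPKM in PROM1 libraries against 3.68 and 9.59 FPKM in control libraries, with overlapping groups. Mcm2 went the other way, at 1.65 and 1.68 FPKM in PROM1 libraries against 2.75 and 2.26 FPKM in control libraries. In bulk RNA, fewer cells of a type and less RNA per cell cannot be told apart.

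The genes most like each member were taken by the distance between log2(FPKM + 1) values centred on each gene's own mean over the 4 libraries. Nearest to Egr1 were Hyi (distance 0.164), Cxxc5 (0.24) and Ddit3 (0.316). Nearest to Fos were Dusp5 (0.235), Igfbp7 (0.263) and Mrgbp (0.291). Dusp5 also had the largest difference among the ERK feedback genes. Distance and difference come from the same library values, so this is not separate evidence of a link. Nearest to Arc were St14 (0.158), Tbc1d8 (0.192) and Cnot2 (0.252), and nearest to Ier2 were Ndufaf6 (0.0993), Nfkbid (0.148) and Tiam2 (0.153). Among the members, Fos and Arc were the closest pair (0.462) and Egr1 and Ier2 the farthest apart (1.51), and no member was among the 3 genes nearest to another. With 4 libraries such likeness is common: between 155 and 250 tested genes had a Pearson's r over 0.95 with any 1 member.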

How the data were processed

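Per the submitters' processing notes, reads were handled with CASAVA and TopHat2 on mouse build mm9, and per the file headers the authors computed FPKM for each library with Cufflinks. For the annotation and the handling of strand, the sources used here give nothing. In the deposited table are 14236 transcripts, limited by its name to those of status OK. Per the file headers the authors also deposited 1 FPKM per group, p-values, q-values, a −log10 column of the p-values and log2 ratios of the group values. The sources used here do not name the tool of that comparison.

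Symbols came from the descriptions or, for 241 transcripts, from RefSeq accessions (GRCm38.p6). Transcripts with a missing value (39) were left out and FPKM were summed per symbol. Genes whose mean reached 1 FPKM (10108) entered limma 3.58.1 under R 4.3.3, with a variance trend, on log2(FPKM + 1), a scale that understates changes of low genes, at an adjusted p of 0.05. FPKM carry no counts. Low values showed no steps of whole reads (at most 2.26% of 172 to 269 transcripts had the same log2 ratio, to 0.01, between a pair of libraries), so the depth is unknown.

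FPKM summed to 357805 and 379596 in PROM1 libraries 1 and 2, and to 361232 and 385963 in control libraries 1 and 2, with 121, 237, 89 and 283 transcripts listed at 0 in that order. The level of PROM1 was not analysed here. The series text calls the duplicates biological. The members, the lists and the motifs were chosen with earlier results of these data known. Named genes are the 4 members, up to 6 tested genes of each immediate early list, up to 3 of each other list by absolute difference, up to 2 markers by level and 2 by difference, and the 3 genes nearest to each member. Jund, Junb, Mapk3 and genes given to complete a list were named after their values were seen. Promoter sequence is RefSeq's. Alternatives covered the pseudocount, filter, scaling, variance trend, replicate block, transcripts and each left-out library. Some genes of these lists are not reported here.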

Additional observations from a re-analysis of the deposited data

How the results depend on the processing

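None of the 15 alternatives gave Egr1, Fos, Arc or Ier2 a limma adjusted p under 0.05. Their log2 differences were above 0 in all of them except that of Arc fitted per transcript (-0.551). With another pseudocount or a library left out the sign of the summed values could not change, since the groups did not overlap. Another filter, no variance trend, the replicate block and removal of short records left each summed difference as it was. Those settings are therefore no added support for the sign either. Adjusted p ran from 0.711 to 1 for Egr1 and from 0.745 to 1 for Fos. With a pseudocount of 0.1 the difference of Egr1 was 2.59, since its control values are low. The number of genes called, 2, was 0 per transcript (517 with an unadjusted p under 0.05) and 0 without records under 200 nt (510 with an unadjusted p under 0.05), and ran from 2 to 15 when 1 library was left out. In those fits 1 group has a lone library, which is assumed to vary like the other group. The median of the 22 immediate early genes, 0.206, ran from 0.0447 to 0.381 without 1 library, and 12 to 16 of them were higher. These 22 include the 4 members, whose sign could not change there, so part of that count and median was fixed in advance. Without the 4 members, 11 of 18 genes were higher on all 4 libraries, with a median of 0.0713. No rescaling moved the median of all genes by more than 0.1. With the replicate number as a block, 2 genes were called and the adjusted p of Egr1 was 0.745. Same-numbered libraries deviated together with a correlation of 0.14 across genes, but with 2 pairs and no label of a shared culture the numbers are not taken as pairs. Counts for the other lists under these settings were chosen after seeing the data. The unknown depth limits the low values, above all Egr1 and Fos in control libraries.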
